A study of Mus musculus with 10 samples.

Results

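The Bmp7 locus of nephron progenitors was defined as mm9 chr2:172550000-172900000, a window of 350 kb around the gene, and its members are all peaks for Six2 or β-catenin that overlap it. Peaks numbering 9 met this rule, of 10348 in the lists of 4 chromatin immunoprecipitation sequencing (ChIP-seq) libraries, and they merged into 5 sites of 7666 over all chromosomes. The members were chosen by their position from the called peaks themselves, and the window was set with these peaks known, so the presence, number and rows of its peaks are descriptions. Bmp7 was taken to lie between 172.694 and 172.766 Mb on the minus strand, bounds known here only to the nearest kb, so that its start is at the higher coordinate and the region 3′ of it at lower ones. Distances from the gene are given to that precision. Exons and introns were not assigned in this build.

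Bmp7 is a secreted ligand of the bone morphogenetic protein family. It binds paired type I and type II serine/threonine kinase receptors, which signal through receptor-activated Smads and through MAP kinases. In the developing kidney it is made by the ureteric bud and by the cap mesenchyme, and the nephron progenitor pool of embryos that lack it is lost early. Six2, a homeodomain factor, keeps cap mesenchyme cells from differentiating. β-catenin activates transcription downstream of canonical Wnt ligands and is brought to DNA by TCF/LEF factors, and the Wnt signal that it carries serves both progenitor renewal and the commitment of progenitors to nephron epithelium.

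All libraries came from nephron progenitors of mixed-background mouse embryos at E16.5, sorted by FACS for a BAC transgene, Six2GFPcre, that every group carries. The 2 Six2 libraries were made from freshly sorted cells. The 2 β-catenin libraries were made from sorted cells pelleted and cultured for 24 h in serum-containing medium with 4 µM BIO, a GSK3 inhibitor that stabilises β-catenin, given in DMSO. Antibody and culture therefore changed together, and their parts in a difference between the maps cannot be told apart. The 4 input and 2 rabbit IgG samples entered no comparison, so a peak here is a call by the authors and no separate check of background enrichment was made at it. Whether libraries of an antibody came from separate sorts is not stated, and a peak list carries no expression by which the sorted cells could be checked against their markers.

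Six2 replicate 1 had 5 of its 5645 peaks at the locus and Six2 replicate 2 had 2 of 1622. β-catenin replicate 1 had 1 of 1873 and β-catenin replicate 2 had 1 of 1208. The files give positions only, so the depth behind a peak is unknown and peaks are described by position, width and row number. Row numbers were used as ranks, because early rows were the ones that the partner library most often shared. When Six2 replicate 1 was divided by row into 10 blocks of like size, 76.5% of the peaks in block 1 were found in replicate 2, against 5.66% in block 9. With Six2 replicate 2 divided likewise, 98.2% of block 1 and 83.4% of block 6 were found in replicate 1, against 83.1% of its whole list. A peak in the middle of that list was thus still mostly shared.

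**Figure D1:**
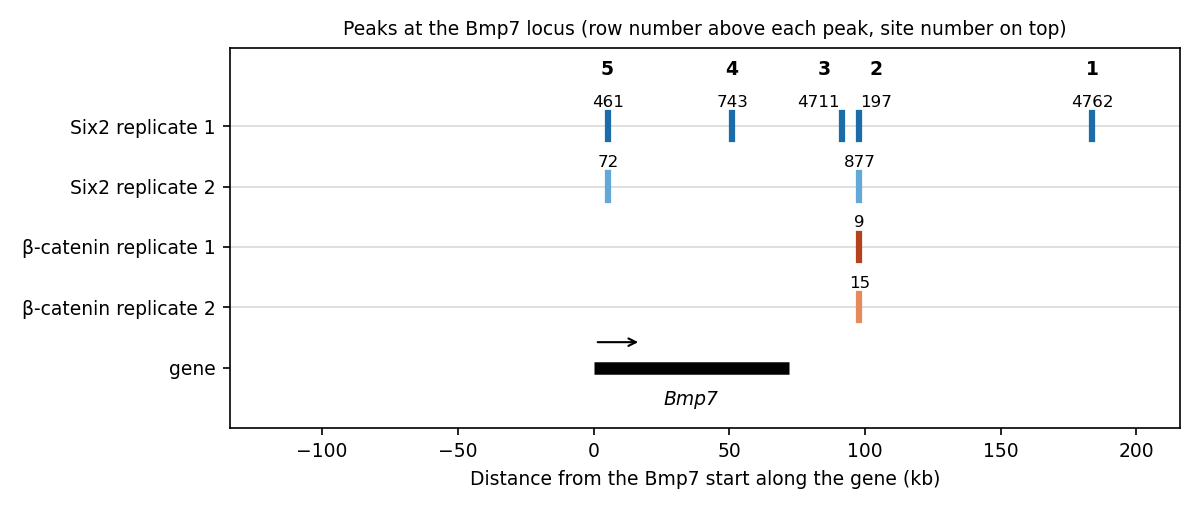
Peaks of the 4 libraries at the Bmp7 locus, plotted by distance in kb from the start of the gene along its direction of transcription; the black bar is the gene, each coloured tick is a peak with its row number above it, and bold numbers name the sites. All 4 libraries have a peak at site 2, about 98 kb from the start and beyond the 3′ end, and both Six2 libraries have one at site 5, about 5 kb into the gene.

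A single site at the locus held peaks of all 4 libraries. Site 2, at chr2:172667934-172668149, lay about 26 kb beyond the 3′ end of Bmp7 and about 98 kb from its start. In the β-catenin lists it stood at row 9 of replicate 1 and row 15 of replicate 2. In the Six2 lists it stood at row 197 of replicate 1 and row 877 of replicate 2. It was thus among the leading β-catenin sites in both libraries, an early site in 1 Six2 library and a middling one in the other. Over the merged sites of all chromosomes, 1.64% were found in all 4 libraries and 9.99% held peaks of both antibodies. No test stands behind the single site seen here.

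For β-catenin, site 2 was the first of all listed peaks on chromosome 2, ahead of the other peaks among 290 in replicate 1 and 95 in replicate 2. Many of the replicate 1 peaks were crowded together. The median gap between neighbours on this chromosome was 3.50 kb, against 786 kb in replicate 2, so the 290 are not as many separate places. The rows amount to 0.481% and 1.24% of the lists. Of the 551 regions found by both β-catenin libraries, it was 8th by mean row number. Its place among those regions was 9 by replicate 1 and 14 by replicate 2, a gap of 5 places, and 95.6% of the regions had a gap as large or larger. The β-catenin libraries therefore placed this site close together, which its early rows in both lists already imply. In the block of rows that holds it, block 1 of each list, 85.1% of replicate 1 peaks and 90.9% of replicate 2 peaks were found in the other library. Over the whole lists these shares were 29.5% and 45.6%. Each crowded peak of replicate 1 is counted in its shares over the whole list.

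For Six2, the libraries placed site 2 far apart. It was 173rd of the 1348 regions found by both Six2 libraries when ordered by replicate 1 and 803rd when ordered by replicate 2. A gap of 630 places or more was seen for 171 of those regions (12.7%). Row 877 was at 54.1% of the replicate 2 list, in a block of which 83.4% of peaks were still found in replicate 1. Row 197 was at 3.49% of the replicate 1 list. On chromosome 2 alone the site was 21st of 445 Six2 peaks in replicate 1 and 75th of 142 in replicate 2.

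**Figure D2:**
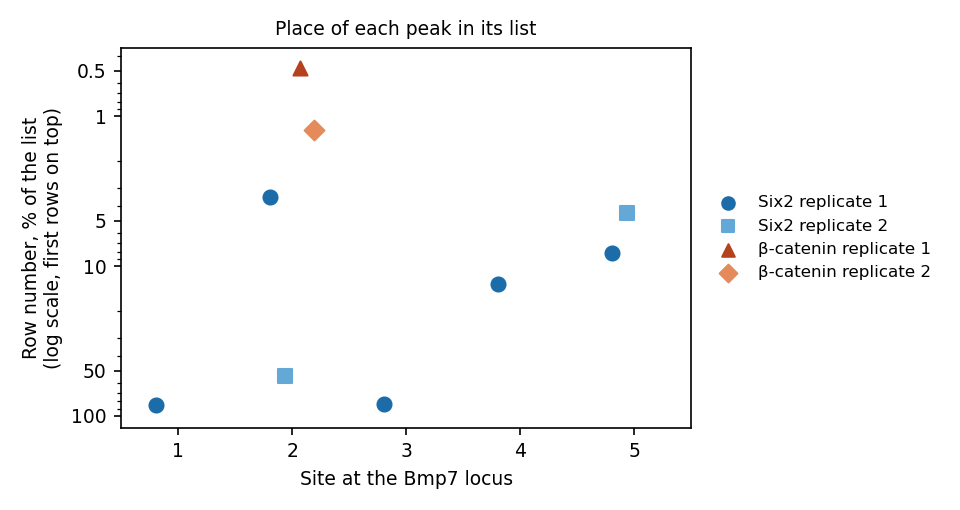
Row number of each peak at the locus as a percentage of its list, on an inverted log axis with early rows on top, by site; symbols and colours mark the library. The β-catenin peaks of site 2 stand at 0.481% and 1.24%, the Six2 peaks of the same site at 3.49% and 54.1%, and the Six2 peaks of site 5 at 8.17% and 4.44%.

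The peaks of site 2 were narrow and nearly superimposed. Six2 replicate 1 called chr2:172667969-172668083 (115 bp) and Six2 replicate 2 called chr2:172667934-172668149 (216 bp). β-catenin replicate 1 called chr2:172668004-172668106 (103 bp) and β-catenin replicate 2 called chr2:172667988-172668137 (150 bp). A stretch of 80 bp, from 172668004 to 172668083, lay in all of them. The Six2 replicate 2 peak held the peaks of the other three libraries whole. Midpoints were 15.5 bp apart between the Six2 libraries and 7.5 bp apart between the β-catenin libraries. Between antibodies they were 13.5 to 36.5 bp apart, with the β-catenin midpoints at the higher coordinates, that is, on the side of the gene. The sequenced fragments, size-selected on a gel, were longer than these offsets.

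The widths were ordinary for these lists, where the median peak of Six2 spanned 146 bp in replicate 1 and 207 bp in replicate 2, and that of β-catenin 140 and 131 bp. The early β-catenin rows were thus not those of unusually broad peaks: 24.5% of replicate 1 peaks and 64.7% of replicate 2 peaks were as narrow or narrower. As a region of both β-catenin libraries it spanned 150 bp, against a median of 188 bp.

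**Figure D3:**
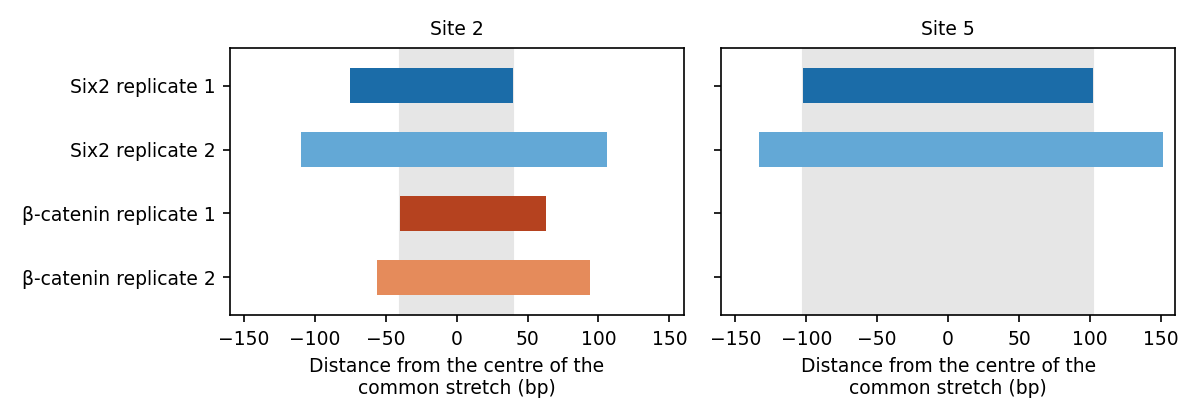
Extent of each library's peak at site 2 and site 5, in bp from the centre of the stretch common to all libraries with a peak there (grey). At site 2 the common stretch is 80 bp in 4 libraries, and at site 5 it is 205 bp in the Six2 libraries, with no β-catenin peak.

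The other site found by both Six2 libraries carried no β-catenin peak. Site 5, at chr2:172760470-172760754, lay inside Bmp7, about 5 kb from its start. It stood at row 461 of Six2 replicate 1 and row 72 of Six2 replicate 2, which is 8.17% and 4.44% of the lists. The peaks were 205 and 285 bp wide, wider than the median of each list, and the replicate 1 peak lay wholly within that of replicate 2, with midpoints 9.0 bp apart. Among the 1348 regions of both Six2 libraries, 73.4% likewise held no β-catenin peak, so the lack of one was the more common state among them. In the blocks that hold site 5, both block 1, 37.0% of Six2 replicate 1 peaks and 54.0% of replicate 2 peaks had a β-catenin peak. Among peaks of like row the lack was thus the more common state in replicate 1 and the less common one in replicate 2.

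The order of both sites depended on the Six2 library. By mean row number site 5 (266.5) came before site 2 (537.0), and by place among the 1348 regions it was 184th against 360th. The row of site 5 minus that of site 2 was -805 in replicate 2, where site 5 came earlier, and 264 in replicate 1, where it came later. Neither site can be called the leading Six2 site of the locus from these lists. On chromosome 2, site 5 was 42nd of 445 Six2 peaks in replicate 1 and 7th of 142 in replicate 2. Site 2 and site 5 were separated by 92.3 kb.

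The remaining sites, 3 of 5, were each seen in Six2 replicate 1 alone. Over all chromosomes 3910 merged sites were of that kind, which is 51.0% of all merged sites. Every site at the locus held a Six2 peak, so the like whole is the 5911 sites with a Six2 peak. The share at the locus is near the background by either count. Site 4, at chr2:172714783-172714898, lay inside the gene about 51 kb from its start and stood at row 743, in block 2 of the list, of which 45.2% was found in replicate 2. Site 3, at chr2:172674576-172674642, lay about 19 kb beyond the 3′ end and 6.43 kb from site 2, at row 4711. It was 67 bp wide, and 5.07% of the list was as narrow or narrower. Site 1, at chr2:172582124-172582243, lay about 112 kb beyond the 3′ end, at row 4762. Sites 1 and 3 fell in block 9 of the list, where few peaks were found again. Among the 4292 peaks of Six2 replicate 1 that replicate 2 lacked, site 4 was 220th by row (5.13%), and sites 3 and 1 were 3399th and 3449th. Row 743 was later than the rows of both sites that replicate 2 also called. Without Six2 replicate 1, the locus had 2 sites in place of 5.

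Of the Six2 replicate 1 peaks at the locus 2 of 5 were found in replicate 2, against 24.0% of the whole list, and both replicate 2 peaks were found in replicate 1, against 83.1%. A β-catenin peak was present at 1 of 5 replicate 1 peaks and 1 of 2 replicate 2 peaks. Over the whole lists 12.9% and 23.6% of Six2 peaks had one. Each β-catenin peak at the locus had a Six2 peak, where 36.6% of replicate 1 and 27.9% of replicate 2 peaks did over all chromosomes. In block 1 of each β-catenin list, which holds these peaks, the shares were higher, 54.8% in replicate 1 and 51.2% in replicate 2. The shares at the locus rest on 1 to 5 peaks each and were not tested against the lists.

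No peak of any library lay in the 134 kb of the window on the 5′ side of Bmp7. All 5 sites were inside the gene or 3′ of it. Over the chromosomes, 3616 of 7255 tiles of 350 kb held any peak, so a shorter stretch without one was not unusual. The peaks of Six2 replicate 1 spanned 179 kb. The nearest Six2 replicate 1 peaks outside the window lay 1406 kb below it, at row 5261, and 358 kb above it, at row 3815. Neither was called in another library. For Six2 replicate 2 they lay 1297 kb below, at row 1145, and 660 kb above, at row 1363. The latter, at chr2:173560001-173560184, was overlapped by a peak of each of the other three libraries, the former by none. For Six2 replicate 1, the peak-free stretches beside the outermost peaks of the locus were 1438 kb below and 497 kb above. Of the 444 gaps between neighbouring peaks of that library on chromosome 2 (median 194 kb), 23 were as long as the former and 111 as long as the latter. For Six2 replicate 2, with a median gap of 728 kb, the stretches were 1415 and 799 kb, and 44 and 67 of 141 gaps were as long. Long gaps of this kind were thus frequent in the shorter list.

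β-catenin had a further site outside the window on the 5′ side. It was called by both β-catenin libraries, at chr2:172997135-172997247 and chr2:172997156-172997285, about 97 kb above the window and 329 kb above site 2. Its rows were 781 in replicate 1 and 413 in replicate 2, and no Six2 peak overlapped it. Below site 2 the next β-catenin peak was 2589 kb away in replicate 1 and 4213 kb away in replicate 2. Neither β-catenin library thus had another peak within 2 Mb of site 2 on its lower side. On chromosome 2, 22 of the 289 gaps between neighbouring replicate 1 peaks were as long, and 12 of 94 in replicate 2. The median gaps were 3.50 and 786 kb.

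A window of this length with 9 peaks was uncommon in the lists. When the chromosomes were divided into 7255 tiles of 350 kb between the outermost peaks, 123 tiles (1.70%) held 9 or more peaks, the mean was 1.43 and 3616 tiles held any. Counting merged sites, which removes the weight of a site seen in several libraries, 3.36% of tiles held 5 or more. For Six2 replicate 1, 1.85% of tiles held 5 or more peaks, and for regions of both Six2 libraries 2.78% held 2 or more. Among the 113 tiles with a region reproducible for both antibodies, 51 (45.1%) held 2 or more regions of both Six2 libraries. The window holds such a region, site 2, so its 2 Six2 regions were not rare beside those tiles. For β-catenin the locus was not dense, since 17.2% of tiles for replicate 1 and 13.3% for replicate 2 held at least 1 peak. The fullest tile for β-catenin replicate 1 held 97 peaks and that for replicate 2 held 5. Crowded peaks of replicate 1 thus also entered the mean of 1.43. The window was chosen with its peaks known and the tiles were not, so these shares describe the locus and test nothing.

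Site 2 was set beside the other regions reproducible for both antibodies. These were the 123 regions of both β-catenin libraries (22.3%) that overlapped a region of both Six2 libraries. Counted from the Six2 side the number was also 123 (9.12%), but the regions do not pair one to one. Neighbouring β-catenin regions overlap a single Six2 region at chr13:28810437-28811065, which therefore enters the Six2 places and medians more than once. By mean β-catenin row site 2 was 3rd of the shared regions, being 2nd in replicate 1 and 5th in replicate 2, where the medians of all shared regions were rows 326.0 and 409.0. By mean Six2 row it was 71st, being 40th in replicate 1 and 97th in replicate 2, against medians of 403.0 and 446.0. With rows divided by the length of each list it was 3rd for β-catenin and 83rd for Six2. It thus lay at the β-catenin-leading end of the shared regions, and its place for Six2 differed with the library and the scale.

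**Figure D4:**
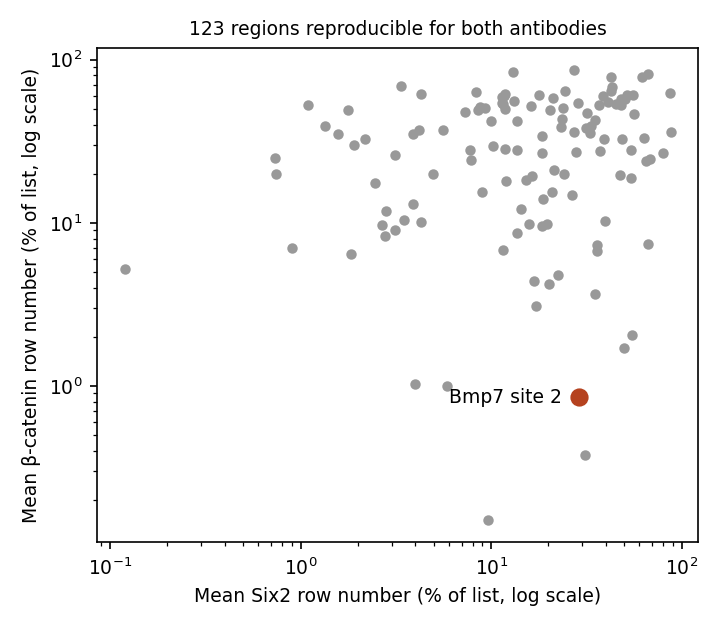
Each point is 1 of the 123 regions reproducible for both antibodies, with its mean Six2 row number (x) and mean β-catenin row number (y), each as a percentage of the list on a log axis; early rows are at the left and at the bottom. On these axes the Bmp7 site (red) is 3rd from the front for β-catenin and 83rd for Six2.

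Among the first 10 regions of both β-catenin libraries, 5 held peaks of both Six2 libraries. Their Six2 replicate 1 rows ran from 133 to 983, and their replicate 2 rows lay between 91 and 877. Site 2 was the third of them by replicate 1 and the last by replicate 2. The site at chr4:136773190-136773332, with a mean β-catenin row of 2.0, stood at Six2 rows 192 and 259. Its replicate 1 row was thus within a few rows of that of site 2, while its replicate 2 row was earlier.

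The pairing of a shared site with a separate Six2 site in the neighbourhood was not rare. Of the 123 shared regions, 45 (36.6%) had another region of both Six2 libraries at 92.3 kb or nearer, the gap between sites 2 and 5. Of all 1348 regions of both Six2 libraries, 363 (26.9%) did. Regions near each other are not independent, and the difference was not tested.

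By the order of genes in the RefSeq table of another build (GRCm38), the protein-coding neighbours of Bmp7 are Tfap2c, an AP-2 family transcription factor gene, on the 3′ side and Spo11, which encodes the enzyme of meiotic double-strand breaks, on the 5′ side. The positions of these neighbours were not carried over to mm9. Whether sites 1, 2 and 3 lie in another transcript was not examined, and no site was assigned to a target gene.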

How the data were processed

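The authors deposited 1 peak list per ChIP library, each row holding a chromosome and the start and end of a peak; these deposited values are coordinates, a type other than expression or read counts. Per the submitters' processing notes, CASAVA version 1.6 and build mm9 were used. The labels name an input library as the control for each ChIP library. The program and cut-off of peak calling, and whether that input or an IgG library entered it, are each not given in the sources used here. Starts were taken as BED (counted from 0) and printed 1-based. Peaks sharing at least 1 bp were merged with a script in Python 3.11.15, whose overlap counts were tested on simulated lists with known shared sites. Figures were drawn with matplotlib 3.10.9. Replicates were numbered in accession order. The window, the members and the comparisons were chosen with earlier results of these data known. Sites found by both libraries of an antibody or by both antibodies were to be named with their rows, and of single-peak sites the 5 earliest at most. Background shares were counted over the whole lists. No test was run, because each antibody has 2 libraries and the members were chosen from the peaks themselves. Genes of the BMP pathway were not counted, since no annotation of build mm9 was used here. Alternatives were a narrower window, shortened lists, a reciprocal overlap of 50%, midpoints within 500 bp, shifted tiles, scaled ranks and leaving out each library; the order of sites by single Six2 libraries and the place of site 2 among shared regions with scaled ranks were added after seeing the data.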

Additional observations from a re-analysis of the deposited data

How the results depend on the processing

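Of 55 alternative values for 16 results, 47 kept the direction or stayed within 1.5 times the main value. Some of them could not have changed, so the count is no measure of robustness. Leaving out a library of 1 antibody does not alter the sites of the other antibody here. Site 2 has peaks in all 4 libraries, so leaving out 1 library cannot remove it as a site with both antibodies. With the first 50% of each list, Six2 replicate 1 kept 3 peaks at the locus and replicate 2 kept 1, and there were 3 merged sites and 1 site of both Six2 libraries, site 5, because row 877 of site 2 lies beyond that limit. Leaving out 1 library gave 2 to 5 merged sites, the 2 being without Six2 replicate 1, and 2 to 5 sites standing for Six2, the 5 being without Six2 replicate 2. Sites with both antibodies numbered 1 throughout, as did sites standing for β-catenin. With 1 β-catenin library left out, the latter were the sites of the remaining β-catenin library. Counting merged sites in place of peaks, 3.36% of tiles were as full as the window. With scaled ranks site 2 was 83rd in place of 71st of the shared regions for Six2 and stayed 3rd for β-catenin. Site 5 minus site 2 was -270.5 rows by the mean, -22.5 percentage points with scaled ranks, -805 rows without Six2 replicate 1 and 264 rows, reversed, without Six2 replicate 2. The cause of the difference between the Six2 libraries was not tested. No paired analysis was possible because the labels link no Six2 library to a β-catenin library (they link each to its own input, which entered no comparison) and no test was run. The depth of the lists is unknown, so a site missing from a list may have been below its threshold.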
